A study of Mus musculus with 48 samples.

Results

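H3K27ac, histone H3 acetylated at lysine 27, was compared at postnatal day 56 (P56) between the forebrain, the heart and the liver of mice of strain CD-1, the oldest of the 7 stages in a series that runs from E11.5 to P56. The comparison rests on the 4 H3K27ac libraries labelled P56, 2 from forebrain and 1 each from heart and liver, out of 24 H3K27ac libraries and 48 libraries with the inputs. Each tissue was cross-linked and sonicated, and chromatin was precipitated with an antibody to H3K27ac. Per the labels, samples of every other stage were pooled from several animals and those of P56 were not, and no treatment or altered genotype is named. The 4 peak lists, called by the authors with 1 list per library, held 125749 peaks, and peaks that shared at least 1 bp were merged into 58944 elements. An element counted as marked in forebrain where both replicates had a peak in it and as unmarked where neither had one, which settled 46643 elements. The other 12301, with a peak in 1 forebrain replicate alone, are called unsettled here.

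H3K27ac is written by the acetyltransferases CBP and p300 and removed by histone deacetylases, and it lies on active promoters and enhancers. Promoters of broadly used genes carry it in most tissues, whereas enhancers are known for marking that differs from one cell type to the next. The adult forebrain is built mainly of neurons and glia, the heart of cardiomyocytes with endothelial cells and fibroblasts, and the liver of hepatocytes with endothelial cells and macrophages. In whole tissue, fewer cells that carry the mark and less mark per cell cannot be told apart.

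The P56 lists held 33178 peaks in forebrain replicate 1, 25709 in forebrain replicate 2, 36251 in heart and 30611 in liver. The libraries held 29939061, 17135627, 25929812 and 11777249 uniquely mapped reads in the same order. The library names in the headers begin with IO for forebrain replicate 1 and heart and with LPAN for forebrain replicate 2 and liver, called 2 library series here, and the header of forebrain replicate 2 alone names a sex (male). The 4 P56 input lists held 26 to 40 peaks, and 26 of the 58944 elements (0.0441%) overlapped any of them. Tissue labels were compared with the lists of the other stages, since no gene markers could be read from positions. Of 20 such lists, the one with the highest Jaccard index (the merged elements 2 lists have in common, over those in either list) was forebrain P7 for forebrain replicate 1 (0.542), forebrain P21 for forebrain replicate 2 (0.509), heart P7 for heart (0.649) and liver P21 for liver (0.718). The closest list of another tissue reached 0.361, 0.377, 0.416 and 0.392 in the same order. The heart P21 libraries stood apart. The library labelled heart P21 input had 23762 peaks, more than any other input list, and its highest Jaccard index with an H3K27ac list was 0.651, with liver P21, against 0.0364 with the heart P21 H3K27ac list. That H3K27ac list held 7376 peaks, where the summary table of the authors gives 23852. Tests and shares taken over several stages are therefore also given without P21. The stages labelled P0 and P21 are named P1 and P20 in the summary table of the authors, and the names in the labels are used here.

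Elements marked in 1 tissue alone were the largest group at P56, and forebrain and liver shared few elements that heart lacked. Of the 46643 settled elements, 5775 were marked in forebrain only (12.4%, exact binomial 95% interval 12.1 to 12.7), 11701 in heart only (25.1%, 24.7 to 25.5) and 8830 in liver only (18.9%, 18.6 to 19.3). Forebrain and heart shared 2935 elements (6.29%, 6.07 to 6.52), forebrain and liver 786 (1.69%, 1.57 to 1.81) and heart and liver 5108 (11%, 10.7 to 11.2). All 3 tissues shared 11508 elements (24.7%, 24.3 to 25.1). By length the order was another: elements of all 3 tissues made up 41.2% of the settled base pairs, and the 26306 elements of 1 tissue made up 37.3%. These intervals cover counting error only, since heart and liver had 1 library each and the difference between tissues has no replicate check.

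**Figure D1:**
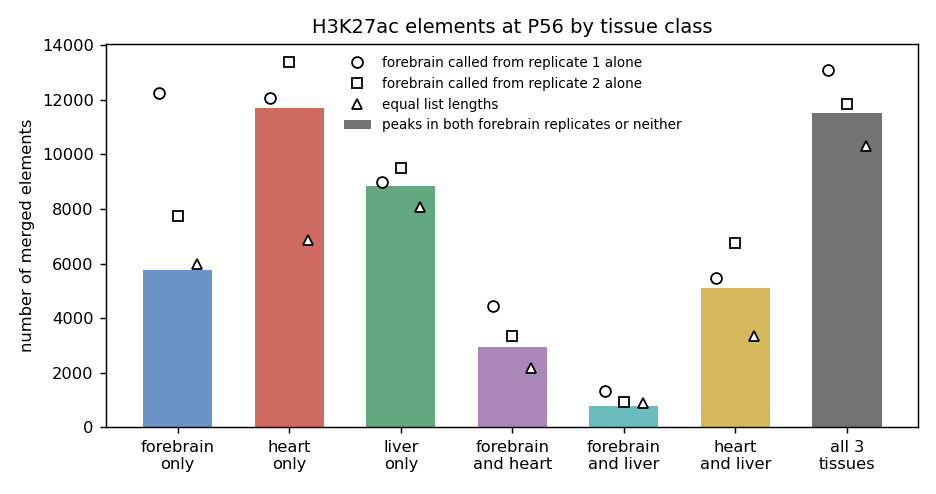
Number of merged H3K27ac elements (y axis) in each tissue class at P56 (x axis). Bars use the rule of both forebrain replicates or neither, open symbols show forebrain called from 1 replicate alone and lists of equal length. Heart only stood at 11701 with the rule and at 6864 with equal lengths, and forebrain only at 5775 and between 7739 and 12251 with 1 replicate.

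The order of the 3 tissues rested on the forebrain rule and on list length. With forebrain called from replicate 1 alone, forebrain-only elements numbered 12251 against 12076 for heart and 8997 for liver, whereas replicate 2 alone gave 7739, 13371 and 9485. With each list held to its best 25709 peaks the counts were 5987 in forebrain, 6864 in heart and 8055 in liver. Forebrain and liver were the smallest of the 3 pairs in each of these settings, with 1334, 932 and 893 elements, against 4455, 3330 and 2188 for forebrain and heart and 5474, 6749 and 3358 for heart and liver.

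The 2 forebrain libraries gave the measure of spread between libraries of 1 tissue. Of the peaks of replicate 1, 66.6% (exact binomial 95% interval 66.1 to 67.1) overlapped a peak of replicate 2, and 89.2% (88.8 to 89.6) of replicate 2 overlapped replicate 1. Agreement followed rank. When the list of replicate 1 was divided into 10 equal groups by the authors' rank, 99.4% of peaks were found again in the best group, 80.4% in group 5 and 18.9% in group 10. In replicate 2 the shares were 98.9%, 94.3% and 67.4%. Of the unsettled elements, 10082 had a peak in replicate 1 alone and 2219 in replicate 2 alone, and those with no heart or liver peak made up 63.7% of the former and 62.1% of the latter.

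The replicates resembled each other more than any pair of tissues did. Their Jaccard index was 0.631. Forebrain replicate 1 had an index of 0.361 with heart and 0.317 with liver, and forebrain replicate 2 had 0.351 and 0.325. Heart and liver had the highest index between tissues, 0.409. The forebrain pair exceeded the mean of the 5 other pairs (0.353) by 0.278, with a two-sided exact permutation p = 0.167, the smallest that the 6 choices of a pair out of 4 libraries can give. Library series, forebrain replicate and list length differ together in these pairs, and their parts cannot be told apart.

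Elements of all 3 tissues filled most of the top of each list and a smaller share of its end. In the best of 10 equal groups by rank, elements of all 3 tissues held 87.2% of the peaks of forebrain replicate 1, 89.9% of forebrain replicate 2, 90.04% of heart and 76.4% of liver. In the last group they held 12.2%, 25.4%, 7.14% and 17.8%, and over the whole lists 40.1%, 52.4%, 34.1% and 42.1%. Peaks of the best group were also wider than those of the last. Their median widths were 3610.5 against 1649 bp and 3079 against 1627.5 bp in the forebrain replicates, 6142.5 against 1706 bp in heart and 7697 against 1598 bp in liver. The class rests on overlaps of at least 1 bp, and the part of width was not tested. Peaks of heart-only elements went from 0.607% of the best group to 61.2% of the last, and liver-only peaks from 10.1% to 45.1%. Forebrain-only peaks ran differently in the 2 replicates. In replicate 1 they went from 5.49% of the best group to 27.9% of group 5 and 8.83% of the last, where 74.3% of peaks were unsettled, and in replicate 2 from 3.89% to 35.3% of group 8 and 32.0% of the last. Among the 100 best peaks, elements of all 3 tissues held 95 in forebrain replicate 1, 97 in forebrain replicate 2, 98 in heart and 83 in liver. Liver was the list with most peaks of its own there, 7 of 100, against 0 in heart and 0 and 1 in the forebrain replicates.

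**Figure D2:**
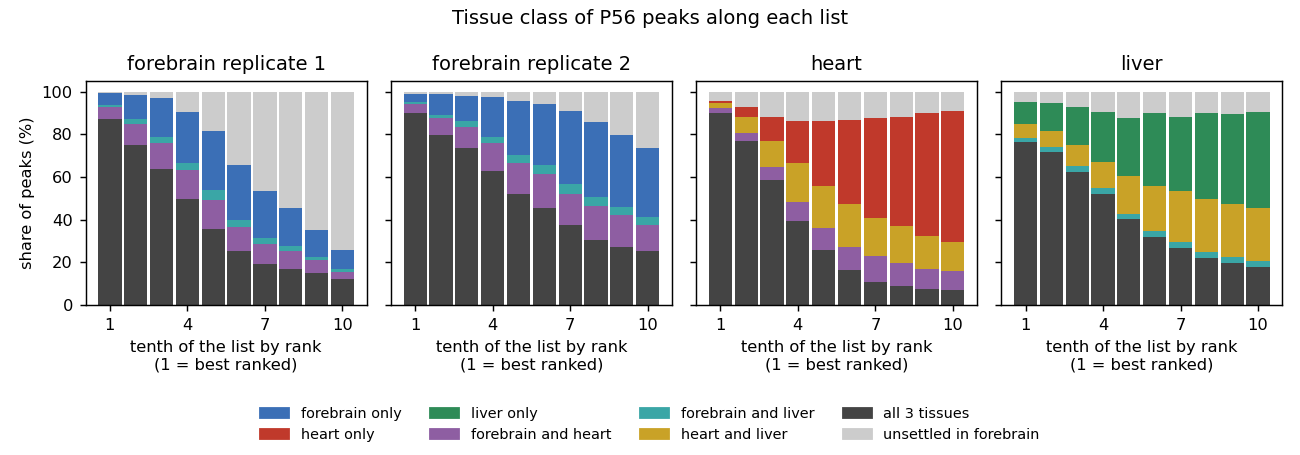
Share of peaks (y axis, %) in each tissue class along each P56 list, divided into 10 equal groups by the authors' rank (x axis, 1 for the best). Elements of all 3 tissues fill 76.4% to 90.04% of the first group in the 4 lists, and peaks unsettled between the forebrain replicates fill 74.3% of the last group of replicate 1.

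Rank is given as a percentile within a list, 100 for the best peak. The median percentile of peaks in elements of all 3 tissues was 74.4 in forebrain replicate 1, 67.2 in forebrain replicate 2, 79.5 in heart and 70.0 in liver. That of peaks in elements of the list's own tissue alone was 50.03, 34.3, 28.3 and 34.7. The gap was 24.4 and 32.9 points in the forebrain replicates, 51.2 in heart and 35.3 in liver. Heart lay above both forebrain replicates (SD 6.01, n = 2), and liver exceeded the higher one by less than that SD. Both forebrain gaps were taken on the same elements, called from both replicates, so that SD is not a spread between independent libraries. However, forebrain-only elements had to be found in both replicates, and agreement between the replicates was lower at the end of each list. With forebrain called from replicate 1 alone its gap was 37.7 points and that of liver 32.5, and with replicate 2 alone they were 36.1 and 34.98, so that liver then lay below forebrain. Peaks shared by heart and liver only had a median percentile of 44.1 in heart and 35.1 in liver, and the liver value was close to the 34.7 of liver-only peaks.

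Elements of more tissues were wider. The median element width was 3099 bp in forebrain only, 2350 bp in heart only, 2440.5 bp in liver only, 4409 bp in forebrain and heart, 4906 bp in forebrain and liver, 4101.5 bp in heart and liver and 5330.5 bp in all 3 tissues. Part of this is built in, since merging more lists widens an element. Single peaks of 1 list avoid that. In heart, peaks of all 3 tissues had a median width of 3714 bp against 2350 bp for heart only, a ratio of 1.58. In liver the widths were 3377 and 2440.5 bp, a ratio of 1.38. In the forebrain replicates they were 2821 against 2922.5 bp and 2426 against 2113 bp, ratios of 0.965 and 1.15 that fall on both sides of 1. The direction in replicate 1 changed with the forebrain rule. With forebrain called from 1 replicate the ratios were 1.23 for replicate 1 and 1.21 for replicate 2, both above 1. That setting also redraws the merged elements and the other classes, and the cause of the change was not tested. At equal list lengths the ratio was 1.16 in heart and 1.24 in liver.

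**Figure D3:**
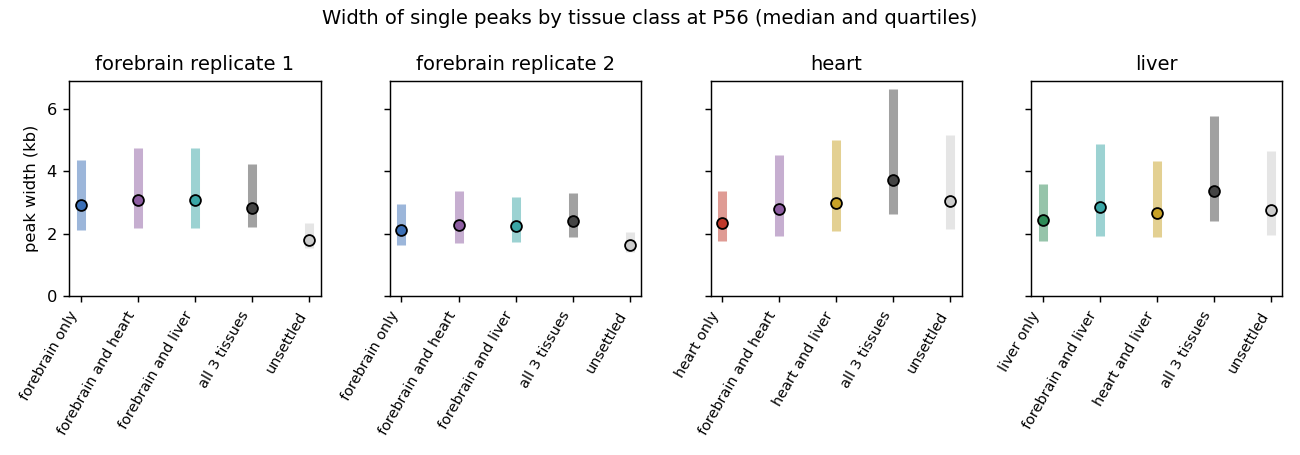
Width of single peaks (y axis, kb) by tissue class in each P56 list. Points are medians and bars span the quartiles. In heart the median goes from 2350 bp for heart only to 3714 bp for all 3 tissues, while in the forebrain lists peaks of unsettled elements are the narrowest, at 1817 and 1645 bp.

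At like rank the difference was not of this kind. Width and rank were tied within each list, with a Spearman rho of 0.569, 0.537, 0.686 and 0.720 over all peaks of forebrain replicate 1, forebrain replicate 2, heart and liver, given as a description because width and rank come from the same reads. In the best of 10 groups by rank, peaks of 1 tissue were the wider ones. Their median width was 5407 against 3431 bp for all 3 tissues in forebrain replicate 1, 4295.5 against 3016 bp in forebrain replicate 2, 7964 against 5814 bp in heart and 8801.5 against 7059.5 bp in liver. These medians rest on 182, 100, 22 and 310 peaks of 1 tissue. Peaks of all 3 tissues were the wider ones in 1, 3, 3 and 5 of the 10 groups in the same lists. In the last group the ratio of all 3 tissues to own tissue was 0.978, 1.02, 0.994 and 1.04.

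Elements of all 3 tissues were not the same width everywhere. Their median covered width was 2978 bp in forebrain replicate 1, 2518.5 bp in forebrain replicate 2, 3892 bp in heart and 3587 bp in liver. After each width was divided by its list's median, 4.70% of the 11508 elements differed by at least 2-fold between the forebrain replicates. Between tissues the share was 18.6% and 19.3% for heart against the forebrain replicates, 25.2% and 24.3% for liver against them and 20.3% for heart against liver. Elements at least 2-fold wider in 1 tissue than in every list of the others numbered 309 for forebrain (2.69%), 386 for heart (3.35%) and 585 for liver (5.08%). The same rule between the forebrain replicates gave 419 (3.64%) for replicate 1 and 122 (1.06%) for replicate 2, in a contrast of 1 list against 1. With widths as deposited, the replicate counts were 772 (6.71%) and 62 (0.539%) and the tissue counts were 119 (1.03%), 722 (6.27%) and 673 (5.85%), so that the order of heart and liver, and whether either passed the replicate pair, depended on the scaling. The 4 lists met at a common stretch in 11106 of the 11508 elements, with a median of 2167 bp. In the other 402, no base pair lay in a peak of every list.

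**Figure D4:**
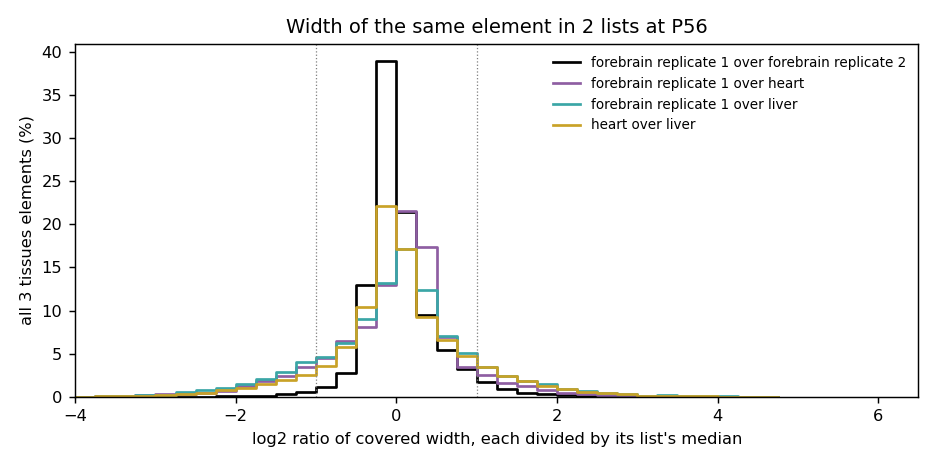
Distribution of the log2 ratio of covered width (x axis) of the same element in a pair of P56 lists, over 11508 elements of all 3 tissues (y axis, %), with dotted lines at 2-fold. The forebrain replicates differ by 2-fold or more in 4.70% of elements, and pairs of tissues in 18.6% to 25.2%.

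Lists of the other stages were not used to call the class of an element, so marking in them could be tested. The comparison and its classes were chosen with earlier results of these data known, so the test was not a blind one. Elements marked in 1 tissue at P56 were found more often in lists of that tissue at E11.5 to P21 than in lists of the others. Over 6 stages, forebrain-only elements were marked in a mean of 48.4% in forebrain lists and 7.83% in heart and liver lists, a difference of 40.6 points. The difference was positive at 6 of 6 stages (exact permutation of tissue within stage, two-sided, p = 0.00137, the smallest of 729 relabellings, adjusted p = 0.00274 over 6 classes). Heart-only elements had 37.0% and 6.11%, a difference of 30.9 points at 6 of 6 stages (exact permutation p = 0.00137, adjusted p = 0.00274). Liver-only elements had 31.3% and 5.20%, a difference of 26.1 points that was positive at 5 of 6 stages (exact permutation p = 0.00274, adjusted p = 0.00412). Without P21 the differences were 41.5, 33.9 and 19.8 points, with adjusted exact permutation p of 0.00617, 0.00617 and 0.00988.

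The earlier marking of these elements differed in time. Forebrain-only elements were marked in forebrain in 23.1% at E11.5, 49.9% at E14.5, 41.6% at E17.5, 61.9% at P0, 76.2% at P7 and 38.0% at P21. Of all P56 elements, those lists marked 22.3%, 34.1%, 28.1%, 37.5%, 45.3% and 23.3%. At E11.5 the forebrain-only share was therefore near that of all P56 elements, and from E14.5 it was higher. Heart-only elements were marked in heart in 27.3%, 34.2%, 24.05%, 58.9%, 59.1% and 18.5% at the same stages, against 39.5%, 41.4%, 33%, 51.6%, 49.7% and 10.4% of all P56 elements. The heart-only share passed the share of all elements from P0 on. Liver-only elements were marked in liver in 13.3%, 5.29%, 31.4%, 23.2%, 56.6% and 58.1%, against 26.7%, 17.6%, 33.1%, 26.4%, 46.2% and 42% of all P56 elements, and stood above it at P7 and P21 alone. At E14.5, the stage with a negative difference, liver-only elements were marked in 8.89% in heart, 5.18% in forebrain and 5.29% in liver. The share of all P56 elements includes elements of all 3 tissues, of which forebrain E11.5 (replicate 1) marked 71.8% and liver E17.5 86.7%. At E11.5 forebrain marked 3.01% of heart-only and 2.12% of liver-only elements. The heart E11.5 list (replicate 1) marked 18.1% of forebrain-only and 9.67% of liver-only elements. At E17.5 liver marked 6.74% of forebrain-only and 8.68% of heart-only elements. In each of these lists its own 1-tissue class had the higher share. List length, library series and stage differ together among these lists, and their part in the course over stages was not tested.

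**Figure D5:**
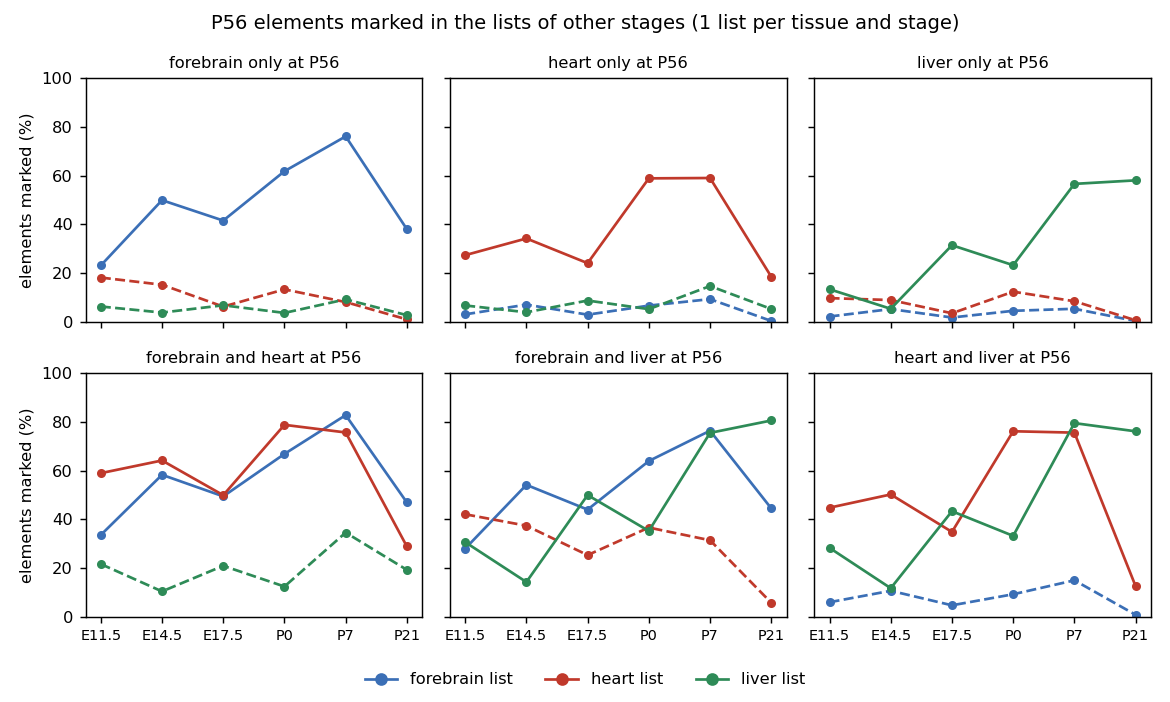
Share of P56 elements of 1 or 2 tissues (y axis, %) marked in each list of an earlier stage (x axis), 1 line per tissue of the list, solid where the tissue belongs to the class. Own-tissue lines lie above the others at every stage for forebrain only and heart only, and liver only shows 5.29% in liver at E14.5 and 58.1% at P21.

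Elements shared by 2 tissues at P56 were tested in the same way, as the mean share in lists of both tissues less the share in lists of the remaining one. Forebrain and heart elements gave 57.9% and 19.9%, a difference of 38.0 points (exact permutation p = 0.00137, adjusted p = 0.00274, positive at 6 of 6 stages). Heart and liver elements gave 47.2% and 7.71%, a difference of 39.5 points (exact permutation p = 0.00412, adjusted p = 0.00494, positive at 6 of 6 stages). Without P21 these differences were 41.9 and 38.7 points, each with an adjusted exact permutation p of 0.00617. Forebrain and liver elements gave 49.8% and 29.8%, a difference of 20.03 points that did not pass the threshold (exact permutation p = 0.0617, adjusted p = 0.0617, positive at 4 of 6 stages). Without P21 this difference was 12.7 points (adjusted exact permutation p = 0.193). The call turned on the setting, since the difference was 21.4 points with equal list lengths and no P21 (adjusted exact permutation p = 0.00412) and 25.7 points after the share of all P56 elements was taken off (adjusted exact permutation p = 0.00137). Of the 786 forebrain and liver elements, 431 (54.8%) were marked in heart at another stage, against 22.1% of the heart and liver elements in forebrain and 45.4% of the forebrain and heart elements in liver. Without P21 the shares were 54.8%, 22.1% and 42.1%. These shares rest on lists of different tissues, which marked unlike shares of all P56 elements. The heart, forebrain and liver lists marked 39.5%, 22.3% and 26.7% of all P56 elements at E11.5 (replicate 1) and 51.6%, 37.5% and 26.4% at P0. Marking in heart at E11.5 was found for 42.1% of the forebrain and liver elements, near the 39.5% of all P56 elements, and at P7 for 31.4%, below the 49.7% of all P56 elements.

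Library series limits these tests. From E11.5 to P21 every forebrain list belonged to IO and every liver list to LPAN. Heart and liver from E14.5 to P21 are both LPAN, and there heart-only elements were marked 31.4 points more often in heart than in liver and liver-only elements 28.2 points more often in liver than in heart. With 5 stages no exact p below 0.0625 is possible, and the adjusted exact permutation p were 0.125 and 0.167. Without P21 the differences were 35.98 and 20.9 points.

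Some elements of 1 tissue had been marked elsewhere earlier. Of forebrain-only elements, 1851 (32.1%) had a peak in a heart or liver list of another stage, as had 3785 (32.3%) of heart-only elements and 2286 (25.9%) of liver-only elements in the lists of the other tissues. Of the forebrain-only elements, 21.9% were marked in heart at E11.5 to E17.5 and 15.3% at P0 to P21, or 15.1% at P0 and P7. Without P21 the shares marked in another tissue were 31.6%, 31.03% and 25.8%. The shares of all P56 elements over the same sets of lists are not given here. Single lists of other stages marked from 10.4% (heart P21) to 51.6% (heart P0) of all P56 elements. Elements found in no other list of the other stages numbered 773 (13.4%) in forebrain only, 2558 (21.9%) in heart only and 1957 (22.2%) in liver only, and without P21 868 (15.03%), 2694 (23.02%) and 2823 (32.0%). Rank and width both went with this. When the elements of 1 tissue were divided into 3 equal groups by rank, 97.1% of the best forebrain-only group had a peak at another forebrain stage, against 67.1% of the last group. The shares were 92.4% and 52.2% in heart only and 93.1% and 54.4% in liver only. Without P21 they were 95.4% and 65.7% in forebrain only, 90.9% and 51.8% in heart only and 79.5% and 46.2% in liver only. The best groups were also wider than the last, with median widths of 4225 and 2432 bp in forebrain only. In heart only the widths were 3729 and 1741 bp, and in liver only 4146 and 1684 bp. A peak anywhere in an element counted as marking, and the parts of rank and width were not separated. Elements of all 3 tissues were marked at another stage of any tissue in all but 4 of 11508 cases, or all but 11 without P21. The share of all P56 elements marked in any of these lists is not given here, so this count is not set apart as a trait of the class. These elements were also wide, with a median of 5330.5 bp against 2987 bp for all P56 elements, and the part of width was not tested. In the heart P21 list, however, 12.9% of the elements of all 3 tissues were marked, less than the 28.9% of forebrain and heart elements and the 18.5% of heart-only elements. A peak of the heart P21 input list overlapped 87.9% of the elements of all 3 tissues, against 33.4% of all P56 elements.

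Unsettled elements were checked in the same lists. Those with a peak in replicate 1 alone and none in heart or liver numbered 6418, and 57.2% of them were marked in forebrain at another stage. Of the 1379 with a peak in replicate 2 alone, 49.1% were. Both values lay below the 82.1% of forebrain-only elements, and the heart or liver lists of other stages marked 23.04% and 25.9% of them against 32.1%. Without P21 the forebrain shares were 56.8%, 47.9% and 80.2%, and the heart or liver shares 22.6%, 25.2% and 31.6%. These unsettled elements were narrower, with median widths of 1802 and 1628 bp against 3099 bp in forebrain only. The part of width was not tested. The shares of all P56 elements over these sets of lists are not given here. In the forebrain P7 list alone, 48.5% and 38.5% of the unsettled elements were marked, against 45.3% of all P56 elements. At E11.5 (replicate 1) the shares were 9.18% and 8.12% against 22.3%. The rule of both replicates left out 3674 and 677 elements with no heart or liver peak at P56 and a forebrain peak at another age.

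The best ranked elements of each class are named by position in mm9, the build of the files, and no gene is given because no mm9 annotation was used here. Among forebrain-only elements the best lay on chromosome 3 (17681814 to 17697560), a single peak of 15747 bp in replicate 1 (rank 346 of 33178) and 13200 bp in replicate 2 (rank 59 of 25709). The next was a 5784 bp element on chromosome 2 (177875305 to 177881088), then one of 34254 bp on chromosome 6 (86005640 to 86039893). Each was marked at all 6 other forebrain stages. The first and second had no peak in any heart or liver list, whereas the last was marked in heart at E11.5 and at 5 stages in liver, from E11.5 to P7. The widest forebrain-only elements lay on chromosome 3 (88002071 to 88047653, 45583 bp), chromosome 7 (86638103 to 86683170, 45068 bp) and chromosome 5 (37257921 to 37292657, 34737 bp). The element on chromosome 7 differed between replicates, with 45068 bp covered in replicate 1 and 19010 bp, in 2 peaks, in replicate 2.

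The 3 best ranked heart-only elements had peaks at few other heart stages. The first, of 8344 bp, was on chromosome 2 (77740912 to 77749255, rank 123 of 36251), the second, of 7011 bp, on chromosome 15 (34009827 to 34016837, rank 530) and the last, of 7242 bp, on chromosome 11 (48681892 to 48689133, rank 668). They were marked at 1, 2 and 1 of the 6 other heart stages. This did not hold for well ranked heart-only elements in general. In the best of 3 equal groups by rank (3901 elements), 92.4% had a peak at another heart stage, or 90.9% without P21. The first of the 3 named elements also overlapped a P56 input peak and was marked in liver at E11.5, and the last was marked in liver at P21. The widest heart-only element, on chromosome 18 (57878496 to 57910246, 31751 bp), overlapped a P56 input peak too and was marked at 5 other heart stages. The next, on chromosome 1 (61349276 to 61379259, 29984 bp), was marked at 4 forebrain stages and 3 heart stages before P56. The last, on chromosome 2 (163177384 to 163206233, 28850 bp), was marked at 5 heart and 5 liver stages.

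Liver-only elements reached higher in their list. The best lay on chromosome 1 (90107787 to 90126753, rank 28 of 30611), chromosome 17 (12568463 to 12586454, rank 58) and chromosome 2 (172947014 to 172955773, rank 74). They were marked at 5, 5 and 3 of the 6 other liver stages and in no forebrain or heart list of those stages. The first overlapped a P56 input peak. All 3 lacked a peak at liver E14.5, and the element on chromosome 2 was marked from P0 on. The widest were chromosome 5 (90857797 to 90900171, 42375 bp), chromosome 8 (120214453 to 120253501, 39049 bp) and chromosome 13 (41297586 to 41336621, 39036 bp), of which the last was also marked at 4 forebrain stages.

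Among elements of 2 tissues, the 3 best ranked of forebrain and heart and of forebrain and liver had been marked in the remaining tissue too. Those of heart and liver had not. Over the whole classes, 45.4% of forebrain and heart, 54.8% of forebrain and liver and 22.1% of heart and liver elements had such a peak. The 3 of forebrain and heart lay on chromosome 4 (154974056 to 154977066), chromosome 7 (148511827 to 148515624) and chromosome 3 (95019619 to 95023022), and they were marked at 6, 6 and 5 of the 6 other liver stages. The 3 of forebrain and liver lay on chromosome 15 (102233489 to 102238844), chromosome 11 (118053285 to 118079727) and chromosome 16 (4724879 to 4732251), and they were marked at 5, 6 and 5 other heart stages. The 3 of heart and liver lay on chromosome 18 (6486531 to 6493746), chromosome 8 (34890614 to 34931842) and chromosome 18 (11047003 to 11081828), and none of them was marked in forebrain at any other stage. The best element of all 3 tissues, on chromosome 19 (5792152 to 5853425), held rank 7 in forebrain replicate 1, rank 6 in forebrain replicate 2, rank 2 in heart and rank 4 in liver. It was covered over 48814, 38779, 61274 and 59862 bp in the same lists. The next lay on chromosome 17 (34253064 to 34267798) and chromosome 11 (98623064 to 98661150).

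Elements of the same class lay near each other in every class. The nearest element was of the same class for 24.8% of forebrain-only, 38.0% of heart-only and 34.0% of liver-only elements, while these classes made up 9.80%, 19.9% and 15.0% of all elements. The shares were 10.97% against 4.98% for forebrain and heart, 3.69% against 1.33% for forebrain and liver, 19.8% against 8.67% for heart and liver and 28.5% against 19.5% for all 3 tissues. Runs of neighbouring elements reached 27 heart-only elements on chromosome 11 (44428377 to 44839176), 18 liver-only elements on chromosome 8 (118241183 to 118889933) and 11 forebrain-only elements on chromosome 15 (82740425 to 82843528). In windows of 1 Mb, the most liver-only elements were found on chromosome 8 (118000001 to 119000000), with 33 of 37 elements, and none of the 37 was marked in both forebrain replicates. The densest heart-only window, on chromosome 11 (44000001 to 45000000), held 32 of 44 elements, with 0 forebrain-only elements. The densest forebrain-only window, on chromosome 9 (45000001 to 46000000), held 22 of 76, beside 14 elements of all 3 tissues. These densities have no replicate check in heart or liver.

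Chromosomes differed in the mix of classes. Elements of all 3 tissues made up from 20.02% of settled elements on chromosome 13 to 31.5% on chromosome 11 among the autosomes, and 24.6% on X. Forebrain-only elements made up 6.11% on X, below the autosomal range of 8.36% (chromosome 19) to 15.5% (chromosome 9). Heart-only elements made up 32.1% on X, above the autosomal range of 20.4% (chromosome 7) to 30.3% (chromosome 13), and heart and liver elements made up 15.5%, above 9.31% to 12.8%. These shares rest on 786 settled elements of X. The sex of the animals is named for forebrain replicate 2 alone, and its part was not tested.

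The overlap asked for bore on the classes in both directions. Within 1000 bp of a peak of another tissue lay 252 of 5775 forebrain-only elements (4.36%), 546 of 11701 heart-only elements (4.67%) and 484 of 8830 liver-only elements (5.48%). Within 500 bp lay 127, 259 and 252 of them. With peaks trimmed to 1 kb, elements of all 3 tissues numbered 7222 and those of forebrain and liver 1563, and where peaks had to cover 50% of an element they numbered 5424 and 476, against 11508 and 786 with 1 bp.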

How the data were processed

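Each library has 1 peak list, which the authors deposited with a position and the authors' rank of every peak but no score. The submitters' processing notes name BWA, MACS 1.4 and mm9, without roles, and per the file headers the H3K27ac track names include withInput and pe05. A deposited summary table gives read counts and peak counts per library; at P56 its peak counts exceeded the H3K27ac lists by 517 to 2534, and the filter between them is not given in the sources used here. Ranks were used within their own list only. Peaks overlapping by at least 1 bp in the 4 P56 lists were merged, and a P56 element counted as marked in a list of another stage where any peak overlapped it. E11.5 replicate 1 was used in the stage test, which permuted tissue within stages exactly (two-sided, Benjamini-Hochberg over 6 classes) and was checked on simulated shares. Those shares were drawn independently, without the differences in list length and library series of these lists, so the check does not cover them. Labels do not say whether the forebrain replicates came from separate animals, so p-values speak for these libraries only. The comparison, its classes and lists were chosen with earlier results of these data known. Named elements are, per class, the 3 with the highest mean rank percentile, and for 1 tissue also the 3 widest and the densest window of 1 Mb. Promoter shares, gene lists and marker genes were planned and not run, since no mm9 annotation was used here. Intervals are exact Clopper-Pearson at 95%. Coordinates are 1-based. Analyses used Python 3.11.15, numpy 2.4.6, scipy 1.17.1 and matplotlib 3.10.9.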

Additional observations from a re-analysis of the deposited data

Results flagged for a closer look

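A signal appeared in a library outside the P56 comparison. Of the 11508 elements of all 3 tissues at P56, 87.9% overlapped a peak of the heart P21 input list, while the 23 other input lists overlapped 0% to 4.75% of them. That list overlapped 33.4% of all P56 elements. By class it overlapped 39.5% of liver-only elements, near the share of all elements, 3.26% of heart-only and 1.42% of forebrain-only elements. Among its 23762 peaks, 88.5% lay in a liver P21 H3K27ac peak and 4.97% in a heart P21 H3K27ac peak.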

How the results depend on the processing

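Counts of elements per class were recomputed under 9 settings, the Jaccard difference under 5, widths and ranks under 3 each and the stage differences under 15. The classes were redrawn without forebrain replicate 1 and without replicate 2: counts ranged from 7739 to 12251 for forebrain only, 3330 to 4455 for forebrain and heart and 932 to 1334 for forebrain and liver, and the gap for replicate 1 (without replicate 2) was 37.7 percentile points with a width ratio of 1.23, which reversed the 0.965 reported. A peak in either replicate gave 13572, 4798 and 1481. Equal list lengths gave 6864 heart-only and 3358 heart and liver elements, with width ratios of 1.16 in heart and 1.24 in liver. Peaks trimmed to 1 kb gave 14271 liver-only, 1563 forebrain and liver and 7222 elements of all 3 tissues. Where peaks had to cover 50% of an element, forebrain and liver had 476 and all 3 tissues 5424. The better ranked 50% of each list left 2551 forebrain-only, 5540 heart-only, 4364 liver-only, 1437 forebrain and heart, 331 forebrain and liver, 1821 heart and liver and 6968 elements of all 3 tissues, since it holds fewer peaks. The forebrain and liver stage difference passed the threshold with equal list lengths without P21 (21.4 points), less the share of all elements (25.7), and with E11.5 (26.6) or E14.5 (24.7) left out, the last pair chosen after seeing the data. In heart and liver lists alone, also chosen after seeing the data, heart only (31.4 points), liver only (28.2) and forebrain and heart (40.0) could not pass with 5 stages, nor without P21 (35.98, 20.9 and 47.6 points). Among the width ratios, rank gaps, Jaccard difference and stage differences, the width ratio of forebrain replicate 1 alone changed direction in the settings run. The order of the 1-tissue classes by count changed too, as did the order of the liver and forebrain rank gaps. The cause of these shifts was not tested. No paired analysis was possible because heart and liver had 1 library each at P56.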
